A study of Homo sapiens with 4 samples.

Results

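The S100 proteins and the annexins are calcium-binding protein families whose members bind each other, and their genes were described here in an RNA sequencing experiment on chemotherapy-treated tumor cells. Members were all rows of the deposited count table whose whole gene symbol is S100A or S100B, with or without a number, S100P, S100Z, or ANXA with a number, so that longer symbols such as *S100A7A* and *S100PBP* were not members. This gave 30 genes (18 *S100* genes and 12 annexins) of 18449 in the table. The cells were BT-16 and CHLA-266, established cell lines of atypical teratoid/rhabdoid tumor (AT/RT), a malignant brain tumor of infancy in which the gene *SMARCB1* is usually lost, both assigned to the MYC subgroup. Each line was sequenced once untreated and once after exposure to doxorubicin (doxo, 1 µM), etoposide (eto, 5 µM), and vincristine (vin, 1 µM) on consecutive days followed by several weeks of regrowth, so that a treated library describes the population that grew back. There were thus 2 untreated and 2 treated libraries, 1 per line and condition, and the 2 lines served as the replicates. Where counts are paired below for a condition, BT-16 stands first and CHLA-266 second.

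Library totals ranged from 49849258 to 75087194 counts, and both treated libraries held more detected genes (17815 and 17114) than the untreated ones (16079 and 15464). Of the 12453 genes with 100 or more counts in any library, 31.1% in BT-16 and 32.6% in CHLA-266 differed more than 2-fold between treated and untreated cells. Between the lines this applied to 8.68% of these genes in the untreated and 8.93% in the treated libraries. Among the markers of these cells, *VIM* had between 73439 and 120804 counts and *MYC* between 6804 and 14275, whereas *SMARCB1* was counted in every library (1394 and 1313 before, 981 and 827 after treatment). Of the 16 myeloid markers, which are described beside *S100A9*, the most counted ones were *PTPRC* (at most 287 counts) and *VCAN* (at most 314), while *CD68* and *CD14* had at most 22.

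S100 proteins are small proteins with paired calcium-binding EF-hands that work as dimers, and most of their genes lie together on chromosome 1q21. They regulate the cytoskeleton and enzymes inside the cell, and several are secreted and act on receptors such as the receptor for advanced glycation end products (*AGER*) or toll-like receptor 4 (*TLR4*). Annexins bind negatively charged phospholipids when calcium rises, and they link membranes to the cytoskeleton, serve in exocytosis, and help to reseal torn membranes. Some annexins carry S100 dimers on their N-terminus: annexin A2 pairs with S100A10, and annexin A1 with S100A11.

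Transcription of a gene is set in part by the bases just upstream of its start, and these are shown for the 5 members that passed the test between treated and untreated cells and for *S100A10*, the partner of *ANXA2*. Each run gives the 120 bases before the transcription start, 5′ to 3′ on the strand of the gene, from RefSeq (GRCh38.p14), with the letters TATAAA in capitals. They lie at chr1:153357734-153357853 (+) for *S100A9*, chr1:153545807-153545926 (−) for *S100A4*, chr9:73151745-73151864 (+) for *ANXA1*, chr15:60397987-60398106 (−) for *ANXA2*, chr1:153541810-153541929 (−) for *S100A5*, and chr1:151993860-151993979 (−) for *S100A10*.
S100A9: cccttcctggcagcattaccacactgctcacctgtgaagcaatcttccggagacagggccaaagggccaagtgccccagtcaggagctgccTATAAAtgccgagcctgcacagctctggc
S100A4: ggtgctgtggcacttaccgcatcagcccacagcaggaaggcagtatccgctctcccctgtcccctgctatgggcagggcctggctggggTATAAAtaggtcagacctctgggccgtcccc
ANXA1: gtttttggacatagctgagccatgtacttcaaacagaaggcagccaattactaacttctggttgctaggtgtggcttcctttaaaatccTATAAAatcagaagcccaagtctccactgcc
ANXA2: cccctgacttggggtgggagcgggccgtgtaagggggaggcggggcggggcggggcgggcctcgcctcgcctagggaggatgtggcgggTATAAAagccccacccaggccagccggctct
S100A5: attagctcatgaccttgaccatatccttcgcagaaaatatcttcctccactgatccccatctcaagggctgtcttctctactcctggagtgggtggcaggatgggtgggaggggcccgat
S100A10: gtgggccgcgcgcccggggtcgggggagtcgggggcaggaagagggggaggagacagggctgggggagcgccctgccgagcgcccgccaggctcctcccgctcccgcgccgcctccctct
The letters TATAAA, the core of the TATA box that positions RNA polymerase II, began 29 bases before the start of *S100A9* and 31 bases before the starts of *S100A4*, *ANXA1*, and *ANXA2*. *S100A5* and *S100A10* had no such letters in the 250 bases searched.

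Between treated and untreated libraries, 2 members were upregulated (*S100A9* and *S100A5*) and 3 were downregulated (*S100A4*, *ANXA1*, and *ANXA2*) at an adjusted *p* under 0.05 in edgeR (quasi-likelihood test, Benjamini-Hochberg adjustment over 18066 genes), and 24 of the 29 tested members were neither. Over all tested genes, 16.1% were upregulated and 19.1% downregulated. Among genes with 100 or more counts in any library these shares were 15.9% and 27.7%, while 18 members, called expressed below, reached that count. The 5 DEGs among the members were thus not more frequent than DEGs in the table as a whole. The median log2 fold change was 0.53 over the tested members, 0.24 over the expressed members, 0.24 over all tested genes, and -0.18 over all genes with 100 or more counts. Genes with at most 3 counts in each untreated library and more after treatment were also set to their lower bound. This left the median of the members at 0.53 and gave 0.21 over all tested genes. The scaling moved these values together: the median over all tested genes was 0.46 with library totals and 0.59 with upper-quartile scaling, and the split of DEGs shifted from 2910 up and 3454 down to 3678 and 2353 and to 4361 and 1895.

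Each cell line can be compared with itself, and a model with the line as replicate block had a lower common dispersion (0.0712 instead of 0.140). With the block, 6 members were upregulated and 4 downregulated, beside 17.9% and 23.7% of all genes. *S100A10*, *S100A11*, *ANXA4*, and *ANXA11* were added to the upregulated and *ANXA6* to the downregulated genes. On the scale of library-normalized counts (CPM, scaled by the trimmed mean of M values, TMM), 13 of the 30 members were higher in both treated libraries than in both untreated libraries and 4 were lower, beside 40.2% and 32.3% of all genes, while 13 overlapped.

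**Figure D1:**
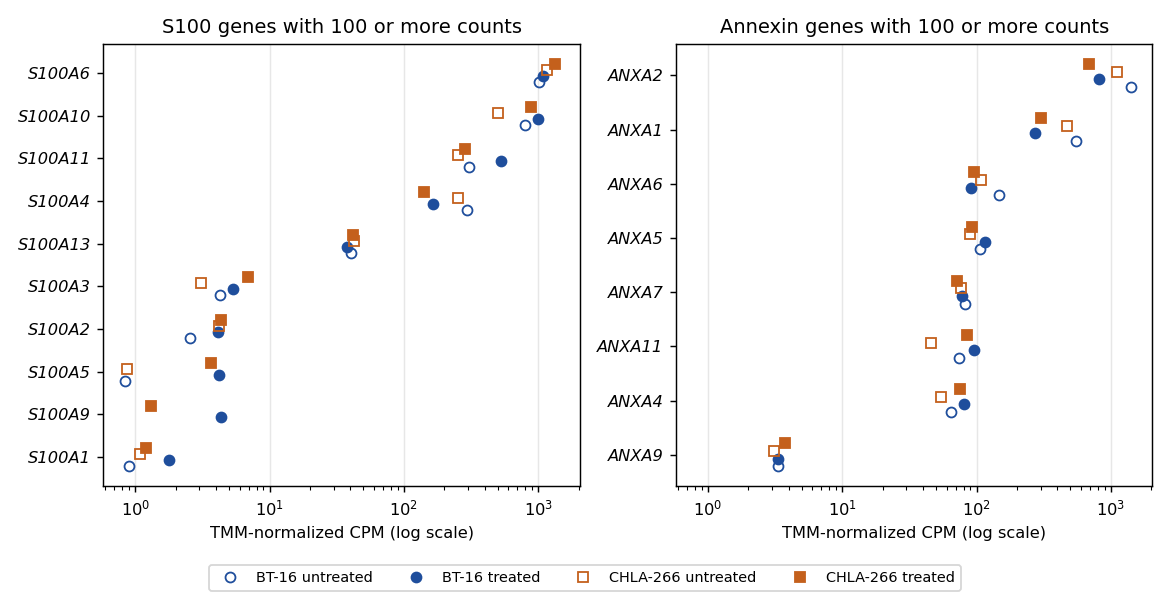
Level of the 18 expressed members in each library. The horizontal axis gives TMM-normalized CPM on a log scale, each row is a gene, circles are BT-16, squares are CHLA-266, open symbols are untreated, and filled symbols are treated libraries. *S100A9* had 0 counts in both untreated libraries, which a log axis cannot show. *S100A4*, *ANXA1*, and *ANXA2* were lower in both treated libraries, and *S100A5* was higher in both.

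Annexin A2 and S100A10 form a tetramer at the inner face of the plasma membrane, where it binds plasminogen and carries ion channels to the surface. *ANXA2* fell after treatment, while *S100A10* did not fall. *ANXA2* was the most abundant annexin, with 1408 CPM in untreated BT-16 and 1104 in untreated CHLA-266, against 819 and 691 CPM after treatment, a log2 fold change of -0.73 (standard error 0.19, adjusted *p* = 0.0190). Its 2 treated values lay below both untreated values. *S100A10* had 795 and 505 CPM in untreated BT-16 and CHLA-266 and 992 and 878 CPM after treatment, a log2 fold change of 0.53 (standard error 0.23, adjusted *p* = 0.103), which did not pass, whereas it did with the block (0.56, standard error 0.15, adjusted *p* = 0.00406) and in 6 of 10 alternatives in all. Both treated values of *S100A10* lay above both untreated ones, and its log2 ratio was larger in CHLA-266 (0.80) than in BT-16 (0.32).

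Dividing the counts of one gene by those of another within a library removes the library scaling. The ratio of *S100A10* to *ANXA2* counts was 0.564 before and 1.21 after treatment of BT-16, and 0.457 before and 1.27 after treatment of CHLA-266. The treated ratio was thus 2.15 times the untreated one in BT-16 and 2.78 times in CHLA-266, with no overlap between conditions. *ANXA2* remained a DEG in 7 of 10 alternative analyses, but not with library totals or upper-quartile scaling or when only genes with 10 counts in every library were kept. Relative to the median of all tested genes, the log2 fold change of *ANXA2* was -0.97 and that of *S100A10* was 0.29. These values were the same under all 4 scalings compared (TMM, DESeq2 size factors, library totals, upper quartile). A scaling shifts all genes nearly alike, so this sameness is built in and does not bear on the lost calls. Over genes with 100 or more counts the median was -0.18 with TMM, and *ANXA2* lay less far below that median.

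Annexin A1 is an anti-inflammatory annexin that is cut and secreted and acts on formyl peptide receptors, and S100A11 binds its N-terminus. *ANXA1* fell from 546 to 273 CPM for BT-16 and from 473 to 300 CPM for CHLA-266. The log2 fold change amounted to -0.83 (standard error 0.17, adjusted *p* = 0.00674). The treated libraries lay below the untreated ones, and *ANXA1* was a DEG in all 10 alternative analyses and without any single library. *S100A11* reached 304 CPM before and 532 CPM after treatment of BT-16, and 251 and 287 CPM for CHLA-266. The treated CHLA-266 library thus lay below untreated BT-16, and the log2 ratio of BT-16 (0.81) exceeded that of CHLA-266 (0.19). The fitted log2 fold change of 0.56 did not pass (standard error 0.27, adjusted *p* = 0.137), but *S100A11* passed with the block (0.50, standard error 0.16, adjusted *p* = 0.0109). The *S100A11* to *ANXA1* count ratio went from 0.556 to 1.95 in BT-16 and from 0.531 to 0.955 in CHLA-266.

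**Figure D2:**
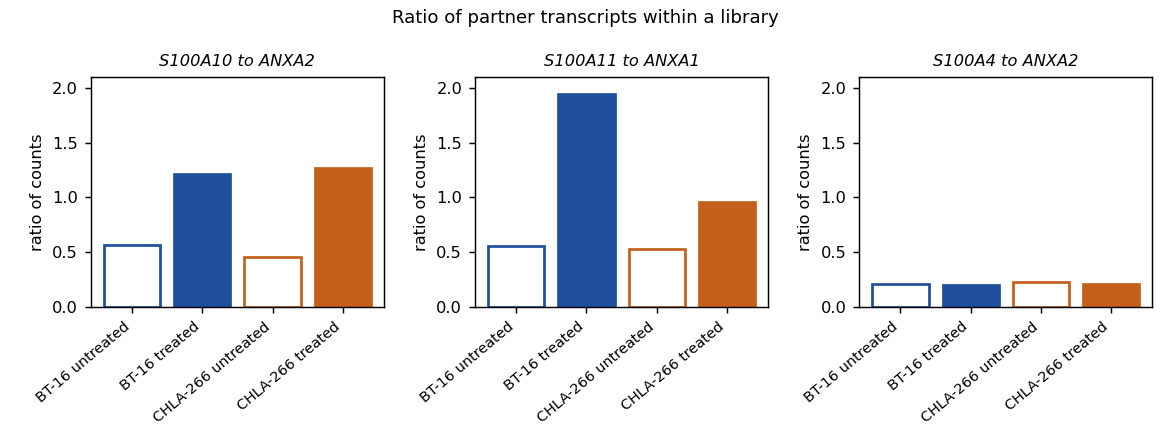
Ratio of the counts of partner genes within each library. The vertical axis gives the unitless ratio, starts at 0, and is the same in the 3 panels, open bars are untreated and filled bars treated libraries. The *S100A10* to *ANXA2* and *S100A11* to *ANXA1* ratios were higher in both treated libraries, whereas *S100A4* to *ANXA2* stayed between 0.202 and 0.231. Not drawn are *S100A6* to *ANXA11*, which fell after treatment in each line, and *S100A11* to *ANXA2*, which rose in each line.

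S100A4 binds non-muscle myosin and p53 and is best known for its association with cell motility and metastasis. *S100A4* had 294 CPM in untreated BT-16 and 255 CPM in untreated CHLA-266, against 165 and 142 CPM after treatment. With a log2 fold change of -0.84 (standard error 0.17, adjusted *p* = 0.00686), it showed nearly the same ratio in BT-16 (-0.83, 95% counting interval -0.87 to -0.80) and CHLA-266 (-0.84, -0.88 to -0.80). It was a DEG in all 10 alternatives and with each library left out. Its share of all *S100* counts was 11.9% before and 5.81% after treatment of BT-16, and 11.4% and 5.25% for CHLA-266. The ratio of *S100A4* to *ANXA2* counts hardly moved (0.209 and 0.202 in BT-16, 0.231 and 0.206 in CHLA-266). The *S100A6* to *ANXA11* count ratio fell after treatment, to 0.815 times the untreated one in BT-16 and 0.628 times in CHLA-266. That of *S100A11* to *ANXA2* rose, to 3.01 times the untreated one in BT-16 and 1.82 times in CHLA-266.

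S100A6, which binds the ubiquitin ligase adaptor CACYBP, and S100A13, which takes part in the release of fibroblast growth factor 1 without a signal peptide, did not pass the test. *S100A6*, the most abundant *S100* gene, ranged from 1022 CPM in untreated BT-16 to 1347 CPM in treated CHLA-266, with 1092 in treated BT-16 and 1167 CPM in the untreated CHLA-266 library (a log2 fold change 0.16, standard error 0.18, adjusted *p* = 0.519). *S100A13* lay between 38.0 and 42.4 CPM in all libraries (log2 fold change -0.05, standard error 0.17, adjusted *p* = 0.814). The sign of the *S100A13* value turned with other scalings. *S100A13* shares 235 exon bases with *S100A1* on the opposite strand, and the strand setting of the counting is not given in the sources used here, so that reads in these bases cannot be told apart. *CACYBP* itself, which is no member, fell in BT-16 (26371 counts before, 8709 after treatment) and in CHLA-266 (24983 before, 6698 after treatment, log2 fold change -1.50, adjusted *p* = 0.000394).

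S100A5, S100A3, and S100A2 are encoded next to each other and to *S100A4*, and little is known of their function in the brain outside the olfactory neurons that express *S100A5*. In the untreated lines *S100A5* had 58 and 53 counts, and after treatment it rose to 243 in BT-16 and 189 in CHLA-266. The log2 fold change amounted to 2.20 (standard error 0.49, adjusted *p* = 0.00963). The ratios within the lines were 2.31 (95% counting interval 1.90 to 2.76) and 2.07 (1.63 to 2.55), and *S100A5* passed in all 10 alternatives. The counts of *S100A3* were 296 and 191 before and 311 and 362 after treatment (log2 fold change 0.74, standard error 0.37, adjusted *p* = 0.150). The log2 ratio of BT-16 (0.33) was smaller than that of CHLA-266 (1.16), so most of the difference came from CHLA-266. *S100A2* (175 and 260 counts before, 239 and 226 after treatment) had overlapping values in the 2 conditions (adjusted *p* = 0.550). *S100A1*, the calcium sensor of heart and skeletal muscle (62 and 67 counts before, 104 and 63 after), did not overlap after normalization but did not pass either (adjusted *p* = 0.463). It shares 235 exon bases with the far more counted *S100A13* on the opposite strand, so part of its counts may come from that gene.

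S100A9 and S100A8 form calprotectin, the main cytosolic protein of neutrophils and an inflammatory ligand of *TLR4* and *AGER*. *S100A9* had 0 counts in both untreated libraries and 250 counts in treated BT-16 and 68 counts in treated CHLA-266 (adjusted *p* = 0.00144). Against a floor of 3 counts in each untreated library, it was at least 61.1-fold higher over the group, and at least 99.4-fold higher in BT-16 and 26.8-fold higher in CHLA-266. *S100A9* passed in all 9 alternatives that could test it and without any single library. Its partner *S100A8* had 0 and 2 counts before and 8 and 6 counts after treatment, so that *S100A9* had 31.3 and 11.3 times the counts of *S100A8* in the treated cells. The third gene of this calgranulin group, *S100A12*, was not counted in any library.

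The myeloid markers were read beside *S100A9*. Of 16 such genes, 6 were upregulated and 0 downregulated in edgeR (also 6 and 0 with the block), with summed counts of 544 and 334 in the untreated and 1411 and 1050 in the treated libraries and a median log2 fold change of 2.84. The upregulated ones with the highest level were *VCAN*, a matrix proteoglycan (39 and 78 counts before, 314 and 293 after treatment), *ITGAM* (4 and 4, then 111 and 196), *ITGAX* (2 and 4, then 129 and 87), and *CD163* (8 and 0, then 56 and 63). *CSF1R*, the receptor of macrophage colony-stimulating factor, had 151 and 166 counts before and 261 and 98 after treatment and did not pass. The leukocyte marker *PTPRC* went from 287 to 167 (BT-16) and from 30 to 64 counts (CHLA-266) and did not pass, and *CD68* was at 0 in both treated libraries. Genes that brain tumor cells are not known to use also gained counts after treatment: the 95th percentile of 380 olfactory receptor genes went from 4.11 and 3.81 to 26.3 and 21.2 counts per kilobase of exon, beside 16.1% of all genes upregulated. Of the 6 upregulated myeloid markers, 0 exceeded that percentile in both treated libraries, whereas *S100A9* did. The part of these genes in the *S100A9* counts was not tested, and in bulk libraries more cells of a type and more RNA per cell cannot be told apart.

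**Figure D3:**
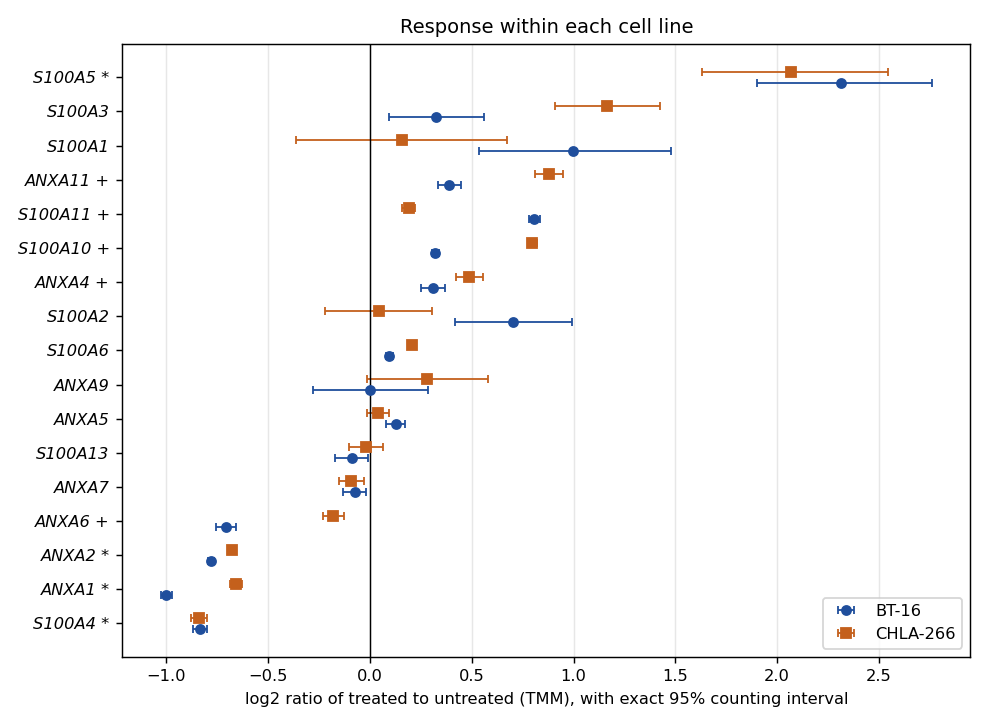
Log2 ratio of treated to untreated TMM-normalized values within each line for the 17 expressed members with counts in all libraries. Circles are BT-16, squares are CHLA-266, and bars are exact 95% intervals that cover counting error only. An asterisk marks genes with an adjusted *p* under 0.05 without the block and a plus sign those that passed with it but not without it. Both lines lie on the same side of 0 for each marked gene.

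The other expressed annexins had smaller log2 fold changes than *ANXA1* and *ANXA2*, and none passed without the block. *ANXA6*, the annexin with a doubled core that binds membranes during endocytosis and repair, had 147 and 90.2 CPM in BT-16 and 108 and 95.04 CPM in CHLA-266 (log2 fold change -0.46, adjusted *p* = 0.0849), and it passed with the block (-0.44, standard error 0.15, adjusted *p* = 0.0214). Its ratio was larger in BT-16 (-0.71) than in CHLA-266 (-0.18). *ANXA11*, which tethers RNA granules to lysosomes, went the other way, with 73.6 and 96.4 CPM in BT-16 and 45.8 and 84.2 CPM in CHLA-266 (log2 fold change 0.60, adjusted *p* = 0.0702, and 0.63 with an adjusted *p* of 0.00165 with the block). *ANXA4*, an annexin of epithelial secretory membranes, had 64.9 and 80.4 CPM in BT-16 and 54.1 and 75.9 CPM in CHLA-266 (log2 fold change 0.39, adjusted *p* = 0.0930, and 0.40 with an adjusted *p* of 0.0357 with the block). For *ANXA4* and *ANXA11*, both treated values lay above both untreated ones.

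*ANXA5*, whose protein is used to stain apoptotic cells, had 105 and 115 CPM in BT-16 and 89.6 and 92.1 CPM in CHLA-266 (fitted log2 fold change 0.09 with a standard error of 0.18, adjusted *p* = 0.712). *ANXA7* had 81.8 and 77.7 CPM and 76.1 and 71.5 CPM (log2 fold change -0.08, standard error 0.15, adjusted *p* = 0.685), and *ANXA9* had 230 and 190 counts before and 193 and 195 after treatment (adjusted *p* = 0.792). The treated and untreated values of *ANXA5* and *ANXA7* overlapped, those of *ANXA9* touched (3.34 CPM in treated and 3.33 CPM in untreated BT-16), and the sign for *ANXA7* turned with other scalings. In total, 0 annexins were upregulated in edgeR without the block, 3 had a positive fold change at an unadjusted *p* under 0.05, and DESeq2 called 3.

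Summed over its genes, the *S100* family was higher and the annexin family lower in both treated libraries. All *S100* genes together had 2464 and 2231 CPM in untreated BT-16 and CHLA-266 and 2841 and 2715 CPM after treatment, while the annexins had 2430 and 1955 CPM before and 1556 and 1415 CPM after treatment. The 2 pools were of similar size in the untreated cells, and the *S100* pool was the larger one in both treated libraries. Taken as a share of the library total, which is itself a scaling, the directions were the same. The *S100* genes held 0.226% and 0.207% in the untreated and 0.319% and 0.283% in the treated libraries. The annexins held 0.223% and 0.182% against 0.175% and 0.148%. Over all tested genes, the median log2 fold change was also positive, at 0.24 with TMM and 0.46 with library totals. Over genes with 100 or more counts it was -0.18 with TMM. Whether the *S100* sum rose beyond such a general shift was not tested. *S100A6*, *S100A10*, *S100A11*, and *S100A4* made up between 97.6% and 98.0% of the *S100* counts in each library. *ANXA2* made up 57.9% and 56.5% of annexin counts in the untreated and 52.6% and 48.8% in the treated libraries.

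Compared per length of exon, which allows levels of different genes to be set side by side, *S100A6* had between 65002 and 73999 counts per kilobase and was first in every library. *S100A10* followed *S100A6* with between 30719 and 56676 counts per kilobase, and *S100A11* came next with between 22958 and 47374. The highest annexins were *ANXA1*, at 8458 and 6545 counts per kilobase in untreated BT-16 and CHLA-266, and *ANXA2*, at 8391 and 5872. The order of *ANXA1* and *ANXA2* was the reverse in treated BT-16 (3543 and 4089 counts per kilobase), and with the longest transcript as the length *ANXA2* was above *ANXA1* in all 4 libraries (27527 and 17051 counts per kilobase in untreated BT-16), so that their order depends on the length used.

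The olfactory receptor genes gave a measure of background counts for all members, and 121 and 90 of 380 receptors were counted in the untreated and 293 and 209 in the treated cells. Of the 30 members, 20 exceeded their 95th percentile in both untreated and 17 in both treated libraries. *S100A9*, at 436 and 119 counts per kilobase in treated BT-16 and CHLA-266, and *S100A5*, at 237 and 185, lay above it. *S100A1*, at 34.3 and 20.8, exceeded it in treated BT-16 and lay just below it in treated CHLA-266. With the longest transcript as the length, 19 members exceeded it in both treated libraries.

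**Figure D4:**
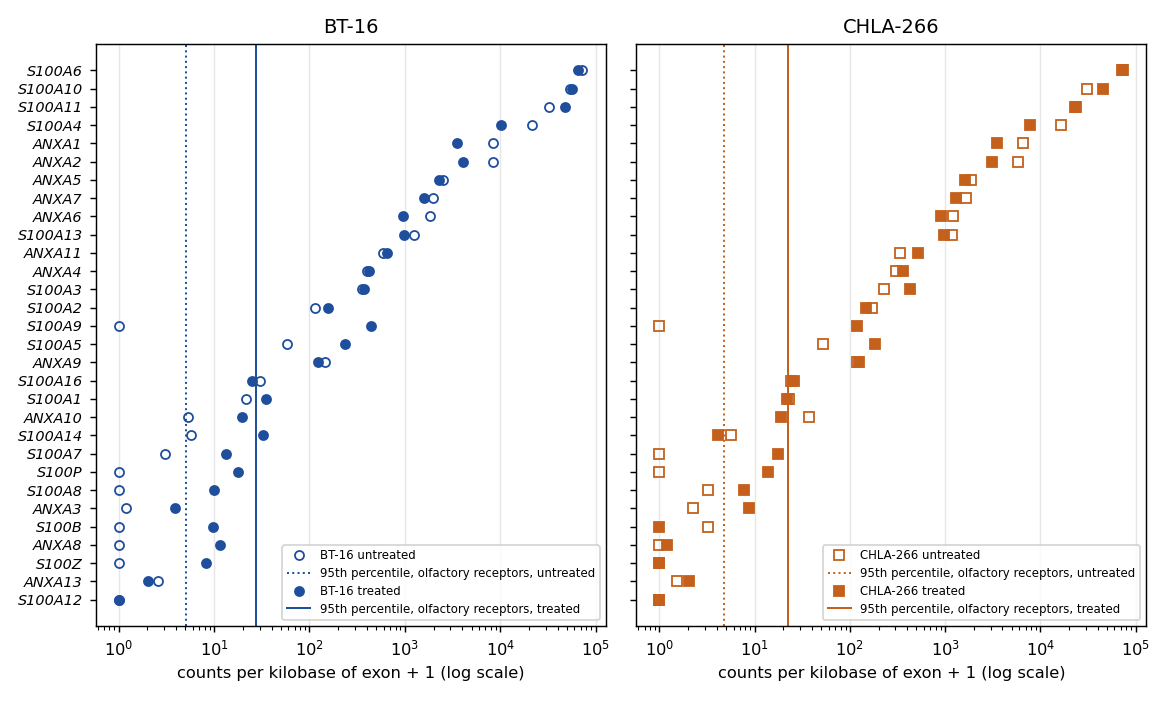
Counts per kilobase of exon, plus 1, for all 30 members on a log axis, with BT-16 on the left and CHLA-266 on the right. Open symbols are untreated and filled symbols treated libraries, and the dotted and solid lines give the 95th percentile of 380 olfactory receptor genes in the untreated and treated library. *S100A9* lies at 0 counts (drawn at 1) in untreated cells and above the solid line in both treated libraries, whereas most of the 12 weakly counted members lie below it.

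The 12 members below 100 counts had at most 66 counts in any library, and 6 and 7 of them were counted in untreated BT-16 and CHLA-266, against 11 and 9 in the treated cells. *ANXA8*, an annexin of squamous epithelium, was not counted before treatment (0 and 0) and had 52 and 1 counts after it. It was at least 9.96-fold higher over the treated group, almost all from BT-16, and it did not pass (adjusted *p* = 0.0667), although it did in DESeq2 (adjusted *p* = 0.0192) and without treated CHLA-266 (adjusted *p* = 0.0129 in edgeR). *ANXA10* differed in opposite directions, with more counts in treated than untreated BT-16 (34 and 8) and fewer in treated than untreated CHLA-266 (33 and 66). *ANXA3* (1 and 6, then 14 and 38 counts), *S100A7*, the keratinocyte protein psoriasin (1 and 0, then 6 and 8), and *S100P* (0 and 0, then 8 and 6) had more counts in both treated libraries, at levels below the 95th percentile of the olfactory receptors. *S100A14* (6 and 6, then 40 and 4 counts), *S100B*, the astrocyte and Schwann cell member (0 and 4, then 16 and 0), and *S100Z* (0 and 0, then 14 and 0) had their highest count in treated BT-16, *ANXA13* had between 2 and 6 counts, and *S100A16* between 39 and 50.

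The *S100* genes of 1q21 included calls in both directions. The interval from *S100A10* to *S100A1* (chr1:151982915-153632039, hg38) held 62 genes of the table, among them 15 members. *S100A9* and *S100A5* were upregulated and *S100A4*, the direct neighbor of *S100A5*, was downregulated, and the other 11 tested members passed in neither direction. Of the 40 tested genes in between that are no members, 5 were upregulated (*TCHH*, *HRNR*, *KPRP*, *PGLYRP3*, and *S100A7A*) and 0 downregulated. Over all tested genes, 16.1% were upregulated and 19.1% downregulated. The upregulated counts of the members (2 of 14) and of the other genes (5 of 40) lie near the first of these shares. *TCHH* and *HRNR*, which encode fused-type S100 proteins of the hair follicle and epidermis, were the only 2 of these other genes with 100 or more counts in any library (112 and 45 counts before, 1720 and 2078 after treatment for *TCHH*, and 8 and 4 before, 119 and 58 after for *HRNR*). A list of cornified envelope genes of the interval also held other genes beside them, such as *PGLYRP3*. Of its 30 tested genes, 2 were upregulated (*KPRP* and *PGLYRP3*). The summed counts of the list were 18 and 19 in the untreated and 399 and 153 in the treated libraries. Of 13 keratinocyte markers, 3 were upregulated (*KRT15*, *TRIM29*, and *PKP1*), and with the block 5 were upregulated and 1 downregulated. Their median log2 fold change was 2.09 when genes with at most 3 counts in each untreated library were set to their bound. Of the 2 upregulated cornified envelope genes, 0 exceeded the 95th percentile of the olfactory receptors in both treated libraries. Of the 3 upregulated keratinocyte markers, 1 did (*KRT15*, or 2 with the longest transcript as the length). *TCHH* also exceeded this percentile in both treated libraries, whereas *HRNR* and *S100A7A* did not.

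**Figure D5:**
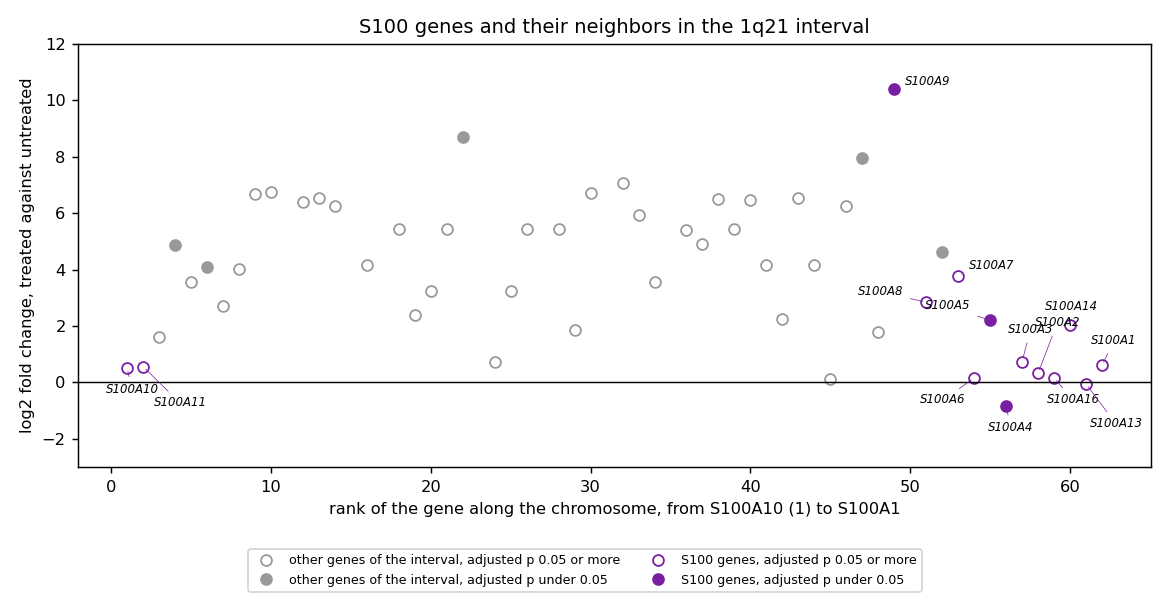
Log2 fold change between treated and untreated libraries (edgeR) for the tested genes of the 1q21 interval in their chromosomal order. Purple symbols are *S100* members, gray symbols other genes, and filled symbols passed an adjusted *p* of 0.05. Most gray symbols stand for genes with 0 or few counts in untreated cells, whose fitted values depend on the prior count, while the *S100* genes at the right-hand end lie on both sides of 0.

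The promoters of the members were searched for short motifs on both strands of the 250 bases before the start. Of the 30 members, 27 matched a RefSeq promoter, and 35116 windows of the same length were the comparison. TATAAA was held by 10 of the 27 members and by 4 of the 18 expressed ones (*S100A9*, *S100A4*, *ANXA1*, and *ANXA2*), against 10.7% of all windows. That these 4 are also 4 of the 5 DEGs was noticed after the values had been seen. Among 14315 tested genes with a window, TATAAA was present in 9.41% of the upregulated, 4.66% of the downregulated, and 10.4% of the other genes. The AP-1 motif (TGANTCA) was in 4 members (*ANXA2*, *S100A2*, *S100A3*, and *S100A12*) against 6.57% of windows, and the E-box (CACGTG) bound by MYC in *ANXA6* alone against 6.34%. The GC box (GGGCGG) was in 12 members against 42.6%, the CCAAT box in 5 against 32.0%, the antioxidant response element (TGACNNNGC) in 2 against 10.9%, and a loose NF-kB pattern in 20 against 54.4%. Motifs can share letters, as the GC box with the NF-kB pattern and the AP-1 motif with the antioxidant response element.

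The lines were also compared with each other, with the condition in the model. *S100A11* was the only member higher in BT-16 (log2 difference 0.58, standard error 0.16, adjusted *p* = 0.0409), beside 1.46% of all genes, and 0 members were higher in CHLA-266, beside 0.836%. At an unadjusted *p* under 0.05, 3 members were higher in BT-16, whereas 0 were higher in CHLA-266 (also 0 in DESeq2). The adjusted *p* of *S100A11* passed in 4 of 9 alternatives. *S100A10* (0.41, adjusted *p* = 0.233) and *ANXA11* (0.44, adjusted *p* = 0.204) were the next in order with the same sign. Of the 18 expressed members, 0 differed more than 2-fold between the untreated lines, and 1 (*S100A9*) did so between the treated ones. Whether the response differed between the lines could not be tested with 1 library per line and condition.

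Genes that work with these families were taken from lists, which were written with earlier results of these data known. The counts below can be read beside all tested genes, of which 16.1% were upregulated and 19.1% downregulated (17.9% and 23.7% with the block). One list held 14 genes tied to the annexin A2 and S100A10 complex, not all of which encode binding partners. Of these 14, 6 were upregulated and 0 downregulated in edgeR (9 and 0 with the block, median log2 fold change 2.26). Of these 6, 3 (*AHNAK2*, *PLAUR*, and *KLF4*) exceeded the 95th percentile of the olfactory receptors in both treated libraries, and *TRPV6* did not. *AHNAK2*, a giant scaffold protein relative of the S100A10 partner AHNAK, had the highest level among the upregulated ones (36029 and 24790 counts before, 83095 and 101496 after treatment, log2 fold change 1.87, adjusted *p* = 0.000504). The transcription factor *KLF4*, *PLAUR*, the receptor of urokinase in plasminogen activation, and *TRPV6*, a calcium channel carried by the complex, were also upregulated. They had at most 307 counts in any library. *AHNAK* had a log2 fold change of 0.67 and passed with the block but not without it.

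Of 12 receptors and effectors of secreted S100 proteins and annexins, 3 were upregulated and 1 was downregulated (3 and 2 with the block), with a median log2 fold change of 1.55. Of the 3 upregulated genes, 0 exceeded the 95th percentile of the olfactory receptors in both treated libraries (1, *ALCAM*, with the longest transcript as the length). The downregulated gene was *EMB* (4278 and 2936 counts before, 1826 and 1058 after treatment, log2 fold change -1.08), and *ALCAM* rose from 24 to 179 and from 30 to 106 counts. *TLR4*, with at most 32 counts in any library, and *AGER*, with a log2 fold change of -0.52, did not pass. *CD36* had 2 and 4 counts before and 49 and 28 after treatment and was upregulated without the block but not with it. The formyl peptide receptors of annexin A1 (*FPR1*, *FPR2*, and *FPR3*) had at most 46 counts in any treated library.

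Of 20 membrane repair and penta-EF-hand genes, 4 were upregulated and 3 downregulated, with a median log2 fold change of 0.22. The catalytic subunit *CAPN1* of calpain rose (log2 fold change 0.72) and its regulatory subunit *CAPNS1* fell (-1.12), as did sorcin (*SRI*, -0.85), an annexin A7 partner, while the membrane-shaping *EHD1* rose (0.59). Of 25 other small EF-hand calcium binders, 2 were upregulated and 8 downregulated, with a median log2 fold change of 0.01. The downregulated ones included the calmodulin genes *CALM3* (40170 and 30519 counts before, 16050 and 16651 after treatment, log2 fold change -0.85) and *CALM2* (-0.79), the neuronal calcium sensor *NCS1* (-1.07), and *EFHD2* (-1.23). *S100PBP*, which encodes a binding protein of S100P, also fell (-0.79).

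Of 9 glial and Schwann cell markers, 6 were upregulated (among them *SLC1A3*, *MBP*, *ALDH1L1*, and *SOX10*), with a median log2 fold change of 1.98, while the glial member *S100B* had at most 16 counts. Of these 6, 2 (*SLC1A3* and *SOX10*, or 3 with the longest transcript as the length) exceeded the 95th percentile of the olfactory receptors in both treated libraries. Of 7 markers of AT/RT-MYC lines, 1 (*MYC*, log2 fold change -0.59, adjusted *p* = 0.0289) was downregulated and 0 were upregulated in edgeR, and of 10 markers of the other AT/RT subgroups 1 was upregulated (*MITF*; 2 with the block).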

How the data were processed

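RNA of 4 libraries was prepared with a stranded SMART-Seq kit and sequenced as paired ends. Per the labels and methods, reads were demultiplexed with bcl2fastq (version 2.20), trimmed with Skewer, and aligned with STAR to hg38, and sex-chromosome and repeated genes were removed. The authors deposited estimated counts per gene symbol (rounded here for 2 genes with 5 fractional values) and variance-stabilized log2 values of 17553 genes, which were used in 1 alternative. The strand setting and the counting of pairs are not given in the sources used here. Low counts were mostly even, so counting intervals are too narrow, and fold bounds against the floor of 3 counts may be too high. Intervals and floors cover counting error only.

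The treatment effect was tested with edgeR (version 4.0.16, R 4.3.3; quasi-likelihood test, TMM) over the 18066 genes with a nonzero total, without a covariate. *P* values without the block measure the spread between 2 lines. With the block, and in the comparison of lines, the spread they measure is the difference in response between the 2 lines. Same-line libraries deviated together (correlation 0.342 over 12162 genes with a mean of at least 1 CPM), so the line was also used as replicate block, the pairing being the cell line itself. The threshold was an adjusted *p* of 0.05. Log2 ratios within a line used 0.5 added counts and exact Clopper-Pearson 95% intervals. Where neither untreated library exceeded 3 counts, a fold is given as a lower bound against that floor. Exon lengths came from GENCODE and promoters from RefSeq. Alternatives were DESeq2 (version 1.42.0), limma (version 3.58.1) on the log2 values, other scalings and filters, halved counts, and each library left out. The estimated log2 fold changes of the test without the block and of the comparison of lines were checked on simulated counts. These counts had a lower dispersion than the data, so the check gives no error rates for them. Members and lists were chosen with earlier results of these data known. All members were named, with counts per library for those with 100 or more counts in any library, and of each other list at most 4 genes past the threshold with the highest mean CPM, with exceptions named for their role.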

Additional observations from a re-analysis of the deposited data

Results flagged for a closer look

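*ANXA10* had opposite signs in the cell lines. Its log2 ratio of treated to untreated was 2.28 in BT-16 (8 and 34 counts, 95% counting interval 1.20 to 3.66) and -0.74 in CHLA-266 (66 and 33 counts, interval -1.40 to -0.13). The difference was not tested, because each line had 1 library per condition. With all counts halved, the interval in CHLA-266 reached from -1.76 to 0.10.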

How the results depend on the processing

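The upregulated members numbered 2 without the block and 6 with the line as replicate block, and the downregulated members 3 and 4. DESeq2 called 6 members upregulated with and 6 without the block, library totals gave 5, upper-quartile scaling 7, and the filter of 10 counts in every library 4. With each library left out in turn, between 2 and 6 were upregulated (6 without treated CHLA-266, 4 without untreated BT-16). Requiring a log2 fold change beyond 1 left 0 downregulated members. Over the other lists, 9 genes were downregulated with that requirement and 18 upregulated with the filter of 10 counts. Members higher in BT-16 numbered 3 with library totals and 0 with the filter of 10 counts, with DESeq2, beyond a log2 difference of 1, with filterByExpr, with limma on the log2 values, and without the condition.

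Signs turned for 3 expressed members that did not pass in any setting. *ANXA7* was at 0.10 with the filter of 10 counts, 0.15 with library totals, and 0.27 with upper-quartile scaling. *S100A13* was at 0.13, 0.17, and 0.29 under these settings, and at 0.0138 with DESeq2 and with its size factors, 0.0136 with DESeq2 and the block, and 0.0124 with limma. With libraries left out, *ANXA5* ranged from -0.0806 to 0.25 and *S100A13* from -0.11 to 0.0165. The median ratio over expressed members was 0.51 (BT-16) and 0.34 (CHLA-266) with library totals and 0.61 and 0.47 with upper-quartile scaling. *ANXA2* was no DEG without untreated BT-16. These causes were not tested beyond the construction of the settings. The block changed no other call among the members than those given. Leaving out a library was not possible for the comparison of lines, which then has no residual degrees of freedom, and was not run for the other lists. Among members below 100 counts, values with a library left out ranged from -0.81 to 2.38 for *ANXA10*, -0.25 to 1.12 for *ANXA13*, -0.25 to 2.89 for *S100A14*, and -4.06 to 6.07 for *S100B*, so their direction rests on single libraries. *ANXA8* passed in DESeq2 and without treated CHLA-266.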
